A study of Mus musculus with 6 samples.

Results

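The genes described here encode 10 proteins that build or bind the basement membrane: the laminin chains Lama4, Lama5, Lamb1, Lamb2 and Lamc1, the nidogens Nid1 and Nid2, the heparan sulfate proteoglycans perlecan (Hspg2) and agrin (Agrn), and the collagen-binding glycoprotein Sparc. They were taken by symbol from the count table, where all 10 were found among its 20822 genes. The study asked how endothelial nitric oxide synthase (eNOS, gene Nos3) shapes the endothelial cells (ECs) of retinas with oxygen-induced retinopathy (OIR), in which mouse pups are kept in high oxygen and then returned to room air. Retinas were taken at postnatal day 14 from eNOS+/+ mice (C57BL/6J wildtype) and from eNOS-/- mice, which lack a functional Nos3 gene in every cell of the body, and both groups went through OIR. There were 3 replicates per genotype, and each replicate pooled 3 to 5 retinas. Cells were enriched with beads against CD31, an endothelial surface protein, and captured by Drop-seq, which tags the 3′ end of each captured mRNA with a unique molecular identifier (UMI).

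A basement membrane is a thin sheet of matrix on which vessels rest. Laminins are heterotrimers of 1 alpha, 1 beta and 1 gamma chain that self-assemble into a network beneath the cell, type IV collagen forms a network of its own, and nidogens and perlecan link both. In retinal vessels this sheet is shared by ECs and the mural cells (pericytes and smooth muscle) that wrap them, and sprouting tip cells lay down new matrix at the vascular front.

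The table held 8944 cells with 10361314 UMIs in all, and 617246 to 3350799 UMIs per replicate. The authors had labelled 1428 Tip ECs, 3335 Structural ECs, 1162 Proliferative ECs, 214 Mural cells, 157 Optc+ cells, 184 Neuroglia, 216 Immune cells, 690 Neurons, 1508 Rods and 50 Cones. Levels are given as CPM, the UMIs of a gene per 1000000 UMIs summed over the cells of a type in a replicate, and a sum was used where it held at least 10 cells. That left 6 replicates for the EC subtypes and Neurons, 5 for Mural cells, Optc+ cells, Neuroglia, Immune cells and Rods, and 1 for Cones, which are not compared. Nos3 itself, counted at its 3′ end, stood at 26.5 ± 8.94 CPM (SD, n = 3) in all ECs of eNOS+/+ and at 23.3 ± 8.55 CPM (SD, n = 3) in eNOS-/-, so these tags did not separate the genotypes. Where these tags lie relative to the part of Nos3 changed in the knockout allele was not tested, so they are not read as a check of the genotype. In eNOS-/- replicate 3 the summed mural markers (10 of 10 detected, including Pdgfrb and Rgs5) reached 4197 CPM in Structural ECs, against 42.4 to 193 CPM in the other 5 replicates. Tip ECs of that replicate held them at 302 CPM (9 of 10 detected), against 53.8 to 115 CPM in the others. Its Proliferative ECs held them at 320 CPM (7 of 10 detected), against 4.83 to 43.4 CPM. Erythroid genes (4 of 4 detected) ranged in Structural ECs from 34.9 CPM in eNOS+/+ replicate 1 to 22522 CPM in eNOS+/+ replicate 2, with 7366 CPM in eNOS-/- replicate 3. The summed immune markers of Structural ECs were also highest in eNOS+/+ replicate 2, at 340 CPM against 29.9 to 53.7 CPM. Because of its mural markers, values without eNOS-/- replicate 3 are given beside the genotype results.

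The sequences upstream of the 5 members with such a window are shown because these genes differed in their order among EC subtypes: Lamb1, Nid1 and Hspg2 had their highest mean in Tip ECs among the 3 subtypes, while Lama5 and Agrn did not. Each run is the 190 bases just before the more upstream of the RefSeq and GENCODE gene starts, written 5′ to 3′ on the strand of the gene, from RefSeq for build GRCm38.p6. Capitals mark GGGCGG, the core of a GC box, read on both strands.
Lamb1: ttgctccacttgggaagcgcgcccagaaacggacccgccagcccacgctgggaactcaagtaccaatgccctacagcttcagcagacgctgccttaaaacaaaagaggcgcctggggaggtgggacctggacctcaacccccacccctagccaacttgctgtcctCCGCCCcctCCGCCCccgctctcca
Nid1: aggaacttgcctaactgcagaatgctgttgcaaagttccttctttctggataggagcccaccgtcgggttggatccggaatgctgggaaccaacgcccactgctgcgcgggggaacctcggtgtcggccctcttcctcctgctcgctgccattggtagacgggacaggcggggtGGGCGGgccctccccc
Hspg2: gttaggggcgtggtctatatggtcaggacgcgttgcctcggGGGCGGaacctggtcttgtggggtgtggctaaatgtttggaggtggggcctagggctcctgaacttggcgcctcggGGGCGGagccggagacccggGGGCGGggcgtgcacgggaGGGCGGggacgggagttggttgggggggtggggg
Lama5: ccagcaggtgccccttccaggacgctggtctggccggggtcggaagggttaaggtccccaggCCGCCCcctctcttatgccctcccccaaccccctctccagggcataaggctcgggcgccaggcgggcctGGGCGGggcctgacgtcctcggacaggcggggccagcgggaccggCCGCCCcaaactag
Agrn: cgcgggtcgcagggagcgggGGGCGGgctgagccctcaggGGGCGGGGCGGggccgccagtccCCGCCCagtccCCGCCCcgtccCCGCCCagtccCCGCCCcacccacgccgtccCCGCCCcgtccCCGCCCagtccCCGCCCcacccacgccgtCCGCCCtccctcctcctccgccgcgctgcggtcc
The Lamb1 run (chr12:31265044-31265233, plus strand) held 2 such matches, and the Nid1 run (chr13:13437361-13437550, plus strand) held 1. The Hspg2 run (chr4:137468579-137468768, plus strand) held 4. The Lama5 run (chr2:180225860-180226049, minus strand) held 3, and the Agrn run (chr4:156197489-156197678, minus strand) held 11, of which 2 overlap. For scale, 30.7% of 32851 promoter windows of the same length held at least 1 match. The G+C content was 63.7% for Lamb1, 63.2% for Nid1, 70% for Hspg2, 73.2% for Lama5 and 84.7% for Agrn, against a median of 53.2% over all windows. These matches describe the letters alone, and they were counted after the expression values were known. The numbers of matches and the G+C contents of the genes that led in Tip ECs and of the others were not tested against each other. Windows for Lama4, Lamb2, Lamc1, Nid2 and Sparc are not shown.

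Tip ECs had the highest mean level of 6 members (Lama4, Lamb1, Lamc1, Nid2, Hspg2 and Sparc), which include the 3 chains of the main vascular laminin trimer. Lama4, the alpha chain of vascular laminin, had a mean of 1186 ± 421 CPM (SD, n = 6) in Tip ECs. It stood at 554 ± 262 CPM (SD, n = 5) in Mural cells, and at 470 ± 149 and 465 ± 165 CPM (SD, n = 6 each) in the Proliferative and Structural subtypes. The other 5 types compared had means of 50.1 to 129 CPM. Neighbours in this order did not differ beyond their spread, taken as the sum of their SDs, except Structural ECs above Rods. The gene lies at chr10:38965515-39110188, plus strand, in GRCm38, the build of all coordinates given here.

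In each replicate the Lama4 level of Tip ECs was above that of Structural ECs. In eNOS+/+ replicates 1, 2 and 3 the level was 1475, 1042 and 840 CPM in Tip ECs and 394, 324 and 319 CPM in Structural ECs. In eNOS-/- replicates 1, 2 and 3 it was 1434, 1712 and 617 CPM in Tip ECs and 580, 739 and 434 CPM in Structural ECs. The lowest Tip EC value of Lama4 came from eNOS-/- replicate 3, and it still lay above every Structural EC value but that of eNOS-/- replicate 2. The fold of Tip over Structural ECs within a replicate ranged from 1.42 to 3.74 with a median of 2.55. The low end was eNOS-/- replicate 3, and the other 5 replicates ran from 2.32 to 3.74.

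Lamb1 (chr12:31265234-31329644, plus strand), the beta chain that pairs with Lama4 in this trimer, had the same leading type. Its mean was 942 ± 247 CPM (SD, n = 6) in Tip ECs and 545 ± 236 CPM (SD, n = 5) in Mural cells, then 362 ± 81.7 and 320 ± 80.2 CPM (SD, n = 6 each) in the Proliferative and Structural subtypes. The other types were at 26.7 to 144 CPM, and no neighbouring pair in the order differed beyond its spread. Within replicates the fold of Tip over Structural ECs was 4.87, 3.00 and 3.03 in eNOS+/+ replicates 1 to 3 and 3.18, 2.75 and 1.64 in eNOS-/- replicates 1 to 3. All 6 replicates were thus on the same side, with eNOS-/- replicate 3 again the lowest.

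Lamc1 (chr1:153218922-153332786, minus strand), the gamma chain, followed the same order at the top, with 525 ± 106 CPM (SD, n = 6) in Tip ECs, 311 ± 170 CPM (SD, n = 5) in Mural cells, 241 ± 48.0 CPM (SD, n = 6) in Proliferative ECs and 198 ± 24.9 CPM (SD, n = 6) in Structural ECs. Tip ECs held 358 to 668 CPM and Structural ECs 160 to 233 CPM, so the replicates of these subtypes did not overlap. The fold within a replicate had a median of 2.66 and a range of 1.91 to 3.51. Lamc1 was also the only member higher in Proliferative than in Structural ECs in each of 6 replicates, by 1.08-fold to 1.63-fold. The only neighbouring pair in its order that differed beyond the spread was Structural ECs above Optc+ cells, at 124 ± 41.6 CPM (SD, n = 5).

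Lama5 and Lamb2, the alternative alpha and beta chains, did not share this order. Lama5 (chr2:180176373-180225859, minus strand), the alpha chain of a laminin that accumulates in mature vessels, was highest outside the vessel wall: the Optc+ cells, named by the authors for opticin, held 178, 85.0 and 215 CPM in eNOS+/+ replicates 1 to 3 and 124 and 41.1 CPM in eNOS-/- replicates 1 and 2. Their mean was 129 ± 69.9 CPM (SD, n = 5), from 32 UMIs, and each of these replicates was above all ECs of the same replicate, by 1.07-fold to 3.68-fold. That excess over the next type, Structural ECs at 51.4 ± 17.8 CPM (SD, n = 6), lay within the spread. Among EC subtypes Lama5 stood at 39.2 ± 15.6 CPM in Tip and 41.4 ± 23.6 CPM in Proliferative ECs (SD, n = 6 each). Tip ECs were above Structural ECs in 2 of 6 replicates. In Mural cells 4 of 5 replicates held no Lama5 UMI.

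Lamb2 (chr9:108479736-108490530, plus strand), the beta chain known from muscle and glomerular basement membranes, was lower in Tip than in Structural ECs in each of 6 replicates. The levels in Tip ECs were 32.3, 10.7 and 48.4 CPM in eNOS+/+ and 35.9, 32.1 and 35.1 CPM in eNOS-/- (replicates 1 to 3), against 52.4, 64.8 and 66.8 CPM and 79.4, 36.7 and 93.4 CPM in Structural ECs. The Tip EC values were close together except for eNOS+/+ replicate 2, which rests on 2 UMIs. The fold had a median of 0.534 and a range of 0.165 to 0.877. Across types, Lamb2 stood at 65.6 ± 19.9 CPM (SD, n = 6) in Structural ECs, 57.4 ± 60.7 CPM (SD, n = 5) in Neuroglia and 56.5 ± 55.3 CPM (SD, n = 5) in Optc+ cells. Only Tip ECs above Rods were apart beyond the spread.

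Nid1 (chr13:13437551-13512269, plus strand), the nidogen that bridges laminin and type IV collagen, was the member that led in Mural cells. Its levels there were 1142 and 868 CPM in eNOS+/+ replicates 2 and 3 and 1200, 981 and 891 CPM in eNOS-/- replicates 1 to 3, with a mean of 1016 ± 149 CPM (SD, n = 5). Each was above all ECs of the same replicate, by 1.83-fold to 2.42-fold. Tip ECs followed at 772 ± 160 CPM (SD, n = 6), which did not differ from Mural cells beyond the spread. Tip ECs were apart from Structural ECs at 413 ± 57.3 CPM (SD, n = 6), with a fold of 1.27 to 2.57 and a median of 1.84 within replicates. Structural and Proliferative ECs (358 ± 46.5 CPM, SD, n = 6) were not apart. A value of 1674 CPM in Neurons of eNOS-/- replicate 3 rests on 10 UMIs in 10 cells, whose sum held mural markers at 6862 CPM, and the other 5 replicates of Neurons held 0 to 39.5 CPM.

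Nid2 (chr14:19751265-19811787, plus strand), the other nidogen, was scarce. Its mean was 83.2 ± 37.2 CPM (SD, n = 6) in Tip ECs, from 207 UMIs, and 25.6 ± 4.86 CPM (SD, n = 6) in Structural ECs. Tip ECs held 106, 85.5 and 44.2 CPM in eNOS+/+ and 81.8, 140 and 42.1 CPM in eNOS-/- (replicates 1 to 3). Tip ECs were higher in 6 of 6 replicates, by 1.75-fold to 4.74-fold with a median of 3.12, and the replicates of both subtypes did not overlap, since Structural ECs ended at 32.4 CPM. In Neurons no Nid2 UMI was found.

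Perlecan, the large heparan sulfate proteoglycan of vessel walls, was mainly a transcript of ECs. Hspg2 (chr4:137468769-137570630, plus strand) stood at 375 ± 165 CPM in the Tip, 248 ± 51.4 CPM in the Structural and 212 ± 71.6 CPM in the Proliferative subtype (SD, n = 6 each), and at 129 ± 56.8 CPM (SD, n = 5) in Mural cells. Mural cells were below all ECs in each of 5 replicates, at 0.200 to 0.530 of the EC level. In Tip ECs the replicates ran from 168 CPM in eNOS-/- replicate 3 to 614 CPM in eNOS+/+ replicate 2. Tip ECs were above Structural ECs in 5 of 6 replicates, by 1.39-fold to 1.98-fold, and below them, at 0.682, in eNOS-/- replicate 3. Against Proliferative ECs they were higher in 6 of 6, by 1.196-fold in eNOS-/- replicate 3 and up to 2.10-fold, with a median of 1.75-fold.

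Agrin, a heparan sulfate proteoglycan of vascular basement membranes and neuromuscular junctions, had its highest means in Structural rather than Tip ECs. Agrn (chr4:156165290-156197488, minus strand) stood at 430 ± 121 CPM in the Structural, 383 ± 99.0 CPM in the Proliferative and 367 ± 66.4 CPM in the Tip subtype (SD, n = 6 each), then at 290 ± 95.4 CPM in Mural cells and 244 ± 112 CPM in Optc+ cells (SD, n = 5 each). No neighbouring pair in its order of 9 types differed beyond the spread. Tip ECs were above Structural ECs in 1 of 6 replicates, and the fold ran from 0.730 to 1.01.

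Sparc (chr11:55394500-55423183, minus strand), which binds collagen IV and is secreted by growing vessels, had more neighbouring types apart beyond the spread than any other member. Tip ECs held 11848, 9706 and 12269 CPM in eNOS+/+ replicates 1 to 3 and 12422, 12590 and 11719 CPM in eNOS-/- replicates 1 to 3. The mean of 11759 ± 1059 CPM was apart from the 9343 ± 757 CPM of Structural ECs, which in turn was apart from the 7496 ± 540 CPM of Proliferative ECs (SD, n = 6 each). Tip ECs were above Structural ECs in 6 of 6 replicates, by 1.15-fold to 1.38-fold, and Proliferative ECs were below Structural ECs in 6 of 6. Mural cells were at 6141 ± 911 CPM (SD, n = 5), below all ECs in 5 of 5 replicates. Neuroglia held 6633 ± 2661 CPM and Immune cells 3463 ± 660 CPM (SD, n = 5 each).

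**Figure D1:**
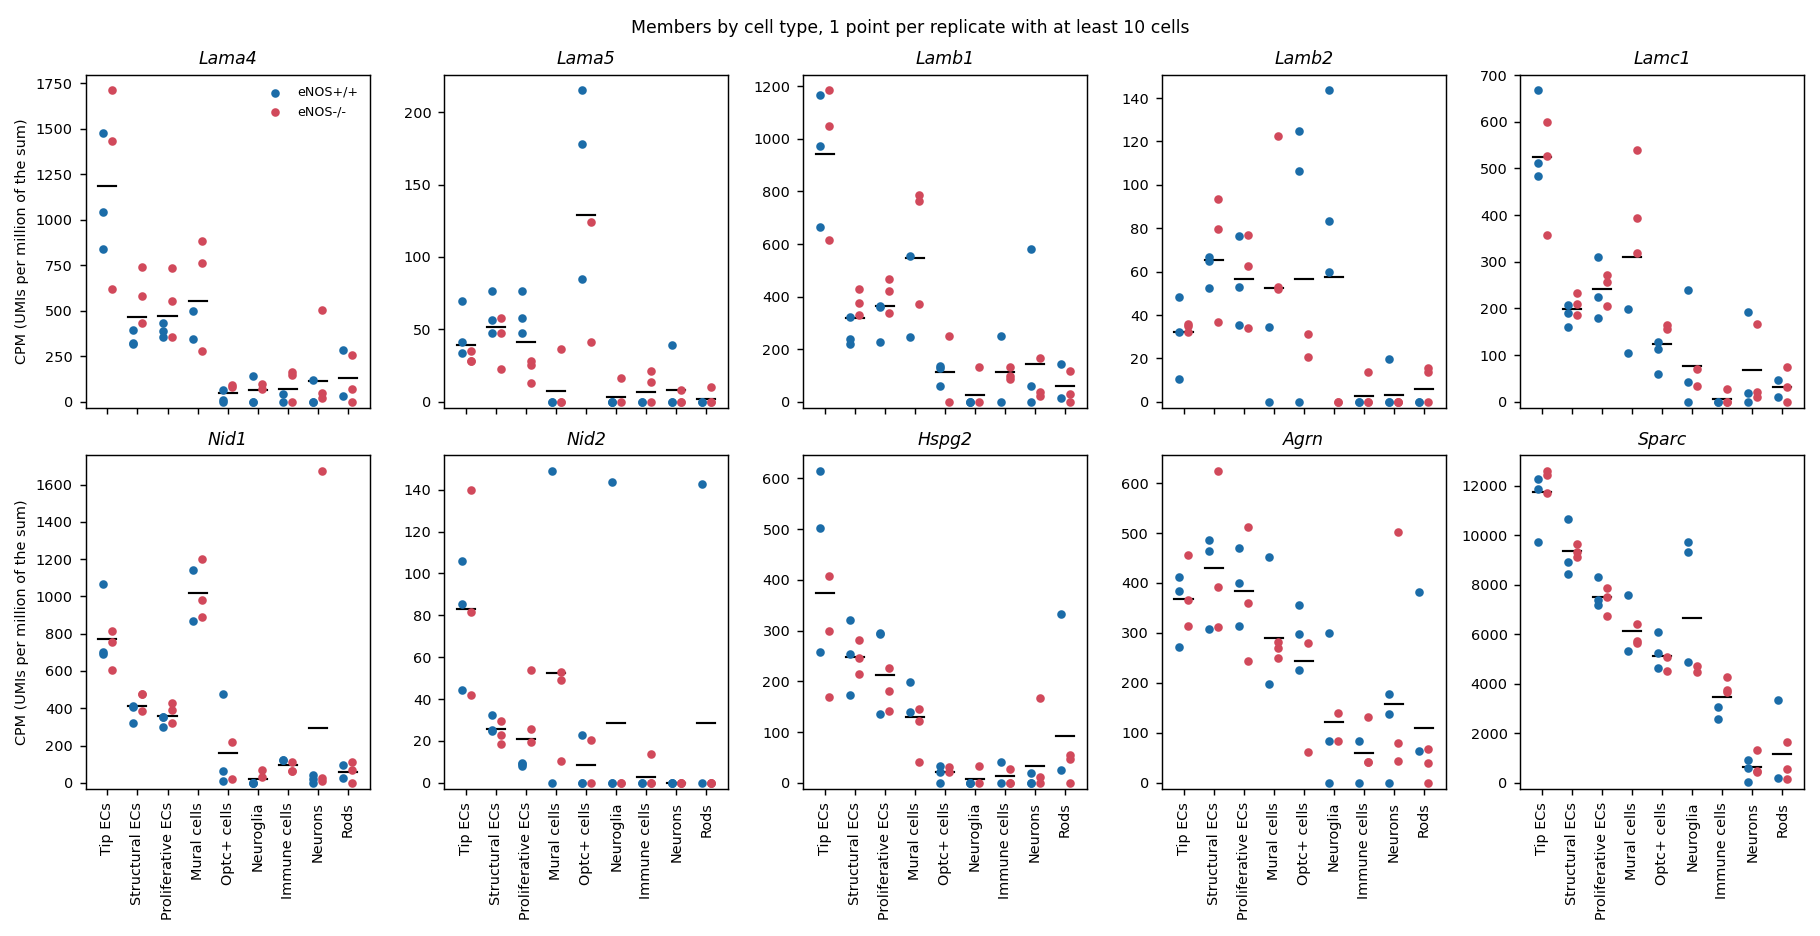
CPM of the 10 members (vertical axes, linear, separate for each gene) in 9 cell types, with 1 point per replicate that held at least 10 cells, coloured by genotype, and a bar at the mean over replicates. The mean was highest in Tip ECs for Lama4, Lamb1 and Lamc1, in Mural cells for Nid1 and in Optc+ cells for Lama5. None of these leading types differed from the next type beyond the spread.

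Counted together, 6 of the 10 members (Lama4, Lamb1, Lamc1, Nid1, Nid2 and Sparc) were higher in Tip than in Structural ECs in each of 6 replicates, and 1 (Lamb2) was lower. Of all 6264 genes with at least 200 UMIs in ECs, 8.57% were higher in each replicate and 9.77% were lower. The median log2 ratio was 0.68 over the members and -0.07 over all these genes. Against Proliferative ECs, Tip ECs were higher for 7 members, the same 6 and Hspg2, and lower for 0, where the shares over all genes were 10.8% and 12.7%. Proliferative ECs were above Structural ECs for 1 member and below for 1, against 8.24% and 7.34% of genes. Mural cells were above all ECs for 1 member (Nid1) and below for 3 (Lama5, Hspg2 and Sparc), where 6.03% and 19.9% of genes did so in 5 of 5 replicates. Optc+ cells were above all ECs for 1 member (Lama5) and below for 7, where the shares were 6.05% and 26.9%. Lama5 in the Mural sums rests on 3 UMIs, all in eNOS-/- replicate 2, and Nid2 in Optc+ cells on 3 UMIs. A level below that of ECs says little for these, since such sums can hold no UMI through low depth. The authors defined the subtypes from the same UMIs, so these counts describe the subtypes and no test was made.

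**Figure D2:**
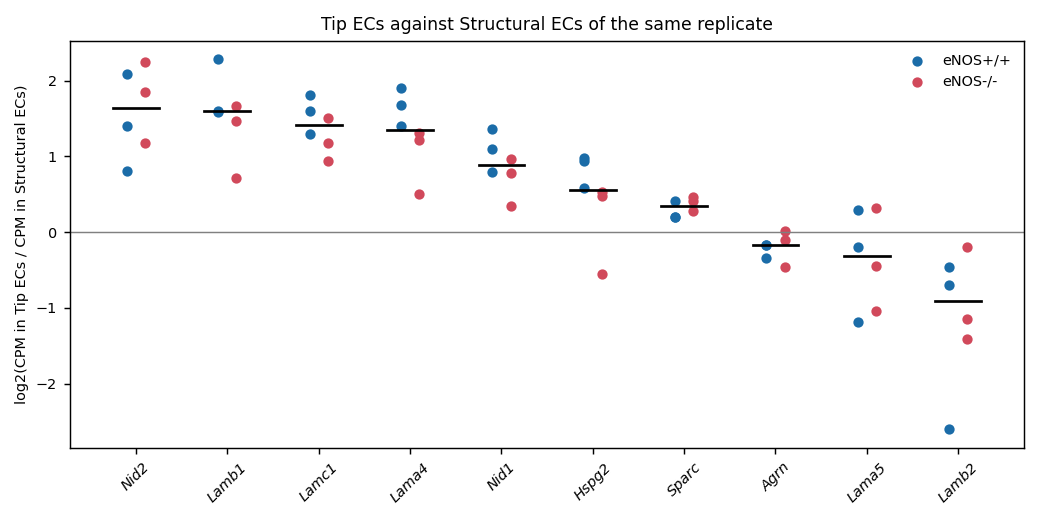
Log2 of the CPM in Tip ECs over the CPM in Structural ECs of the same replicate (vertical axis, 0 means equal) for each member, with 3 points per genotype and a bar at the log2 of the median fold. All 6 points lie above 0 for Nid2, Lamb1, Lamc1, Lama4, Nid1 and Sparc, and all 6 lie below 0 for Lamb2.

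The shares of cells with a UMI of a gene are set by depth as well as level, and the median cell held 1007 UMIs in Tip ECs but 491 in Structural ECs. A Lama4 UMI was found in 64.1% of Tip ECs, 28.2% of Structural ECs and 4.77% of Rods, the last at a median of 361 UMIs per cell. The shares expected with each cell drawn down to 500 UMIs were 43.6%, 20.0% and 6.51%, with 337, 1688 and 1087 shallower cells left out. All shares at 500 UMIs are such expected values, calculated without a random draw. Rods are not known to make a vascular laminin, so their share was taken as the background level, and both EC shares were above it. The source of these UMIs in Rods, whose summed endothelial markers (10 of 10 detected) ran from 720 to 4524 CPM, was not tested. The Lama4 shares of Optc+ cells, Neuroglia, Immune cells and Neurons at 500 UMIs were 1.99% to 3.28%, below the share in Rods. As found, Immune cells (5.09%) and Neuroglia (4.89%) were slightly above Rods, and Optc+ cells (4.46%) and Neurons (3.62%) were below. These shares are not read as expression. Of the 97 Lama4 UMIs in Rods, 75 came from eNOS-/- replicate 2. For Lama5 the Optc+ cells reached 14.0% (6.43% at 500 UMIs) against 0.133% in Rods (0.423%). A Sparc UMI was found in 98.3% of Tip ECs, 64.8% of Immune cells and 78.8% of Neuroglia, against 23.1% of Rods and 22.6% of Neurons, and the share in Neurons, being below that in Rods, is not read as expression.

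**Figure D3:**
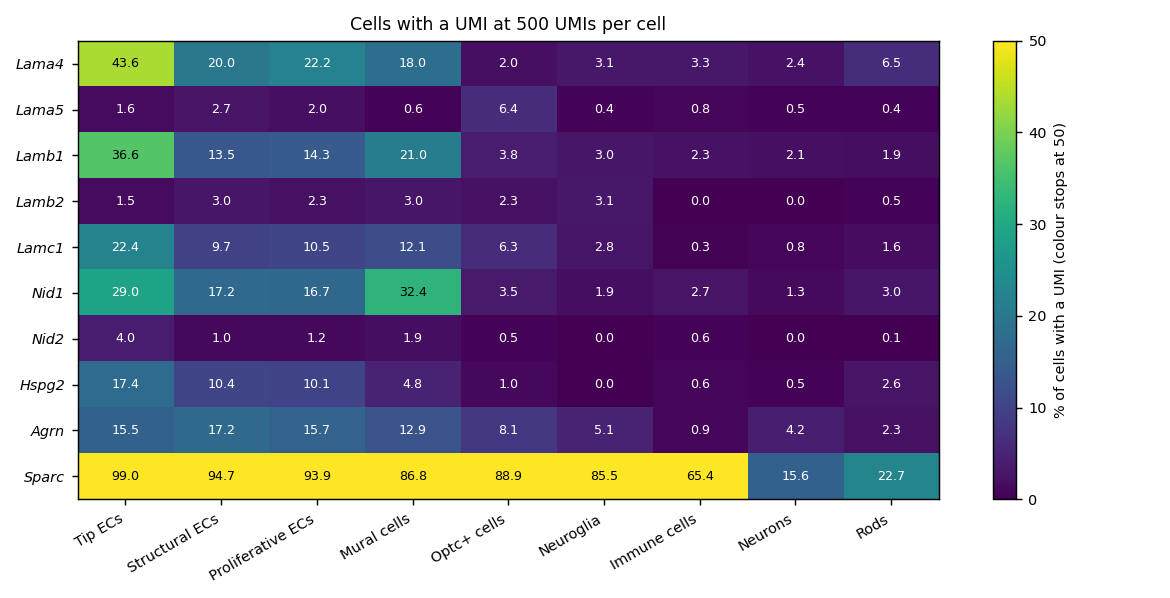
Percent of cells expected to hold at least 1 UMI of each member (rows) in 9 cell types (columns). The percent is written in each field. It was calculated for cells of at least 500 UMIs as if reduced to 500 UMIs, and shallower cells were left out. The colour scale ends at 50%, and Lama4 stood at 43.6% of Tip ECs, 6.5% of Rods and 2.0% of Optc+ cells.

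Between genotypes, no member passed the test in any EC subtype. The fits used edgeR's quasi-likelihood test on the UMI sums of 3 eNOS+/+ against 3 eNOS-/- replicates, with Benjamini-Hochberg adjustment over all genes tested. This test gives no SE, so each SE was derived as the size of the log2 fold change over the square root of the F statistic. For the Tip, Structural and Proliferative subtypes and for all ECs together, in that order, edgeR called 1 of 5510 genes (0.0181%), 2 of 7577 (0.0264%), 1 of 4607 (0.0217%) and 2 of 9483 (0.0211%). DESeq2 called 2, 3, 1 and 3 genes (0.0363%, 0.0396%, 0.0217% and 0.0316%), and none of the called genes was a member. At an unadjusted p under 0.05, edgeR had 0, 2, 2 and 1 members in the same order and DESeq2 had 0, 2, 1 and 1. Over all genes edgeR had 4.95%, 5.52%, 6.38% and 5.78% at that limit, and DESeq2 2.98%, 3.18%, 2.84% and 3.42%. Among the members tested, the genotypes were without overlap and higher in eNOS-/- for 0, 2, 0 and 0 members, where 4.94%, 5.74%, 5.36% and 5.39% of genes were. They were without overlap and lower for 0, 0, 1 and 1 members, where 5.41%, 4.79%, 5.43% and 5% of genes were. Each p measures the spread between pools of retinas, and in these sums fewer cells of a kind and less RNA per cell cannot be told apart.

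Lama4 was the member with the smallest p in Structural ECs. Its levels were 394, 324 and 319 CPM in eNOS+/+ and 580, 739 and 434 CPM in eNOS-/- (replicates 1 to 3). The genotypes did not overlap, all 3 eNOS-/- replicates being higher, as 5.74% of genes were. The log2 fold change of eNOS-/- over eNOS+/+ was 0.75 (SE 0.24), with an edgeR adjusted p of 0.733 (0.00633 before adjustment). Without eNOS-/- replicate 3, the library with the mural markers, the log2 fold change was 0.89 (SE 0.22), and edgeR's adjusted p was 0.148. In Proliferative ECs the values were 387, 432 and 355 CPM against 556, 733 and 358 CPM, which overlap, with a log2 fold change of 0.57 (SE 0.25) and an edgeR adjusted p of 0.721. Leaving out eNOS-/- replicate 2 gave 0.30 there, and leaving out eNOS-/- replicate 3 gave 0.73 with an edgeR adjusted p of 0.133. In Tip ECs the log2 fold change was 0.20 (SE 0.30), where it ran from -0.09 without eNOS-/- replicate 2 to 0.51 without eNOS-/- replicate 3.

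Lamb1 was the other member whose genotypes did not overlap in Structural ECs, at 240, 324 and 219 CPM in eNOS+/+ and 330, 430 and 377 CPM in eNOS-/-. All 3 eNOS-/- replicates were higher. The log2 fold change was 0.54 (SE 0.23) with an edgeR adjusted p of 0.868, and 0.53 (SE 0.23) without eNOS-/- replicate 3. In Tip ECs it was 0.06 (SE 0.27), and 0.28 without eNOS-/- replicate 3. Lamc1, the partner chain of both, was at 160, 190 and 208 CPM against 210, 233 and 187 CPM in Structural ECs, which overlap, and its log2 fold change was 0.16 (SE 0.22), or 0.21 without that replicate.

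Lama5 had a lower mean in eNOS-/- in each EC subtype, none of them past the test. In Proliferative ECs the levels were 58.0, 76.5 and 47.3 CPM in eNOS+/+ and 28.4, 25.3 and 12.8 CPM in eNOS-/-, from 76 UMIs in all. The groups did not overlap, as was so for 5.43% of genes in this direction, and the log2 fold change was -1.21 (SE 0.45) with an edgeR adjusted p of 0.627, or -1.14 without eNOS-/- replicate 3. Over all ECs the levels were 48.5, 67.0 and 58.4 CPM against 42.8, 38.3 and 22.5 CPM, again without overlap, where 5% of genes did so. There the log2 fold change was -0.67 (SE 0.26) with an edgeR adjusted p of 0.824, or -0.53 without that replicate.

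The other members were as follows. Hspg2 in Tip ECs was at 258, 614 and 503 CPM in eNOS+/+ and 407, 299 and 168 CPM in eNOS-/-, groups that overlap, with a log2 fold change of -0.60 (SE 0.30) and an edgeR adjusted p of 0.984. It was -0.38 without eNOS-/- replicate 3, likewise -0.38 without eNOS+/+ replicate 2, and -0.88 without eNOS-/- replicate 1. Nid1 had log2 fold changes of -0.16 (SE 0.25) in Tip ECs and of 0.21 (SE 0.22) and 0.23 (SE 0.23) in the Structural and Proliferative subtypes. Sparc was at 0.12 (SE 0.25), -0.02 (SE 0.24) and -0.03 (SE 0.22) in the same order. Agrn was at 0.05 (SE 0.26), 0.04 (SE 0.28) and -0.18 (SE 0.27). Lamb2 was at 0.01 (SE 0.54), 0.09 (SE 0.35) and -0.05 (SE 0.42), the widest errors of these 4 genes. Without eNOS-/- replicate 3, in the same order of subtypes, Nid1 was at -0.05, 0.15 and 0.30, Sparc at 0.15, -0.06 and 0.02, Agrn at -0.08, -0.29 and -0.38, and Lamb2 at -0.02, -0.13 and -0.15. Nid2 was at 0.40 (SE 0.38) in Tip and -0.14 (SE 0.39) in Structural ECs, or 0.62 and -0.08 without that replicate. Nid2 in Proliferative ECs did not reach the filter on low counts: it held 9.66, 8.996 and 7.89 CPM in eNOS+/+, from 2 UMIs in each replicate, and 19.4, 54.1 and 25.6 CPM in eNOS-/-. These groups did not overlap, and the fit without the filter gave a log2 fold change of 2.01 (SE 0.69) with an edgeR adjusted p of 0.697.

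**Figure D4:**
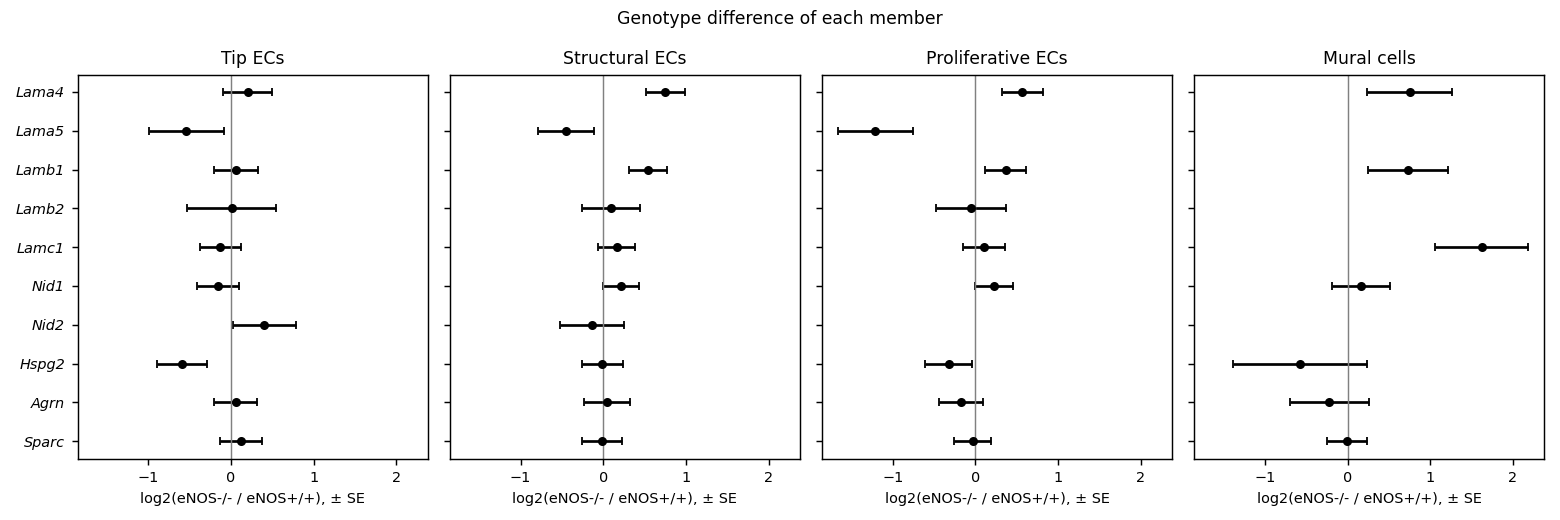
Log2 fold change of eNOS-/- over eNOS+/+ with its SE (horizontal axis) for each member in Tip, Structural and Proliferative ECs (3 replicates per genotype) and in Mural cells (2 against 3 replicates), from edgeR, with no point where a gene did not reach the filter on low counts. Lama4 stood at 0.20, 0.75 and 0.57 in the EC subtypes, and no member passed the adjusted test.

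In Mural cells 1 eNOS+/+ replicate held 3 cells, so the fit used 2 against 3 replicates and 1973 genes, of which edgeR and DESeq2 each called 0 (0%). At an unadjusted p under 0.05 edgeR had 114 genes and DESeq2 47 (5.78% and 2.38%). Of the members, 7 reached the filter on low counts. Lamc1 was at 199 and 104 CPM in eNOS+/+ replicates 2 and 3, from 7 UMIs, and at 540, 319 and 394 CPM in eNOS-/-. The groups did not overlap, as 11.2% of genes did in this direction and 14.7% in the other, and the log2 fold change was 1.62 (SE 0.56) with an edgeR adjusted p of 0.584. Nid1, the leading member of these cells, had a log2 fold change of 0.16 (SE 0.35). Without eNOS-/- replicate 3 these were 1.63 and 0.21.

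Whether the genotype difference depended on the EC subtype was tested in 1 edgeR fit over the 18 sums of the 3 subtypes. It called 0 of 7019 genes, with 241 (3.43%) at an unadjusted p under 0.05, and DESeq2 was not run on it. The smallest p among members were 0.0184 for Nid2 and 0.0316 for Lama4, with an edgeR adjusted p of 0.9996 for each. For Nid2 the difference in Proliferative ECs was 2.08 higher on the log2 scale than that in Structural ECs. This value rests on 2 Nid2 UMIs in the Proliferative ECs of each eNOS+/+ replicate. The Lama4 difference in Tip ECs was 0.52 lower on the log2 scale than that in Structural ECs, a difference that did not pass this test.

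Shares of alternative chains do not depend on library scaling. In all ECs, Lama4 made up 93.3%, 89.4% and 89.3% of the Lama4 and Lama5 UMIs in eNOS+/+ and 94.7%, 96.4% and 95.5% in eNOS-/- (replicates 1 to 3). The means were 90.7% ± 2.29 and 95.5% ± 0.867 (SD, n = 3 each), groups without overlap, with a 2-sided exact permutation p of 0.1, the smallest that 3 against 3 allow, and 0.3 adjusted over 3 shares. Over all ECs the log2 fold change of Lama4 was 0.38 (SE 0.25), which became 0.10 when eNOS-/- replicate 2 was left out and 0.61 when eNOS-/- replicate 3 was, with an edgeR adjusted p of 0.333. Within subtypes the Lama4 share was 95.7% ± 1.80 in eNOS+/+ and 97.2% ± 1.38 in eNOS-/- in Tip ECs (SD, n = 3 each). For Structural ECs these values were 85.0% ± 4.35 and 93.3% ± 2.13, and for Proliferative ECs 86.7% ± 1.65 and 96.1% ± 0.847. The genotypes overlapped in Tip ECs and did not in the other subtypes. The Lamb1 share of Lamb1 and Lamb2 was 89.7% ± 2.10 against 89.8% ± 4.69, and the Nid1 share of Nid1 and Nid2 was 93.1% ± 0.815 against 92.2% ± 3.73 in all ECs (SD, n = 3 each), with an exact permutation p of 1 for both. Within subtypes the Lamb1 shares of the genotypes overlapped. The Nid1 share did not overlap in Proliferative ECs, at 97.3%, 97.5% and 97.4% in eNOS+/+ and 95.7%, 87.8% and 92.6% in eNOS-/-, where the eNOS+/+ values rest on 2 Nid2 UMIs each. Shares within subtypes were not tested, and how often other gene pairs were without overlap was not computed. The Lama4 share in Proliferative ECs rests on the same 76 Lama5 UMIs as the Lama5 levels given above.

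**Figure D5:**
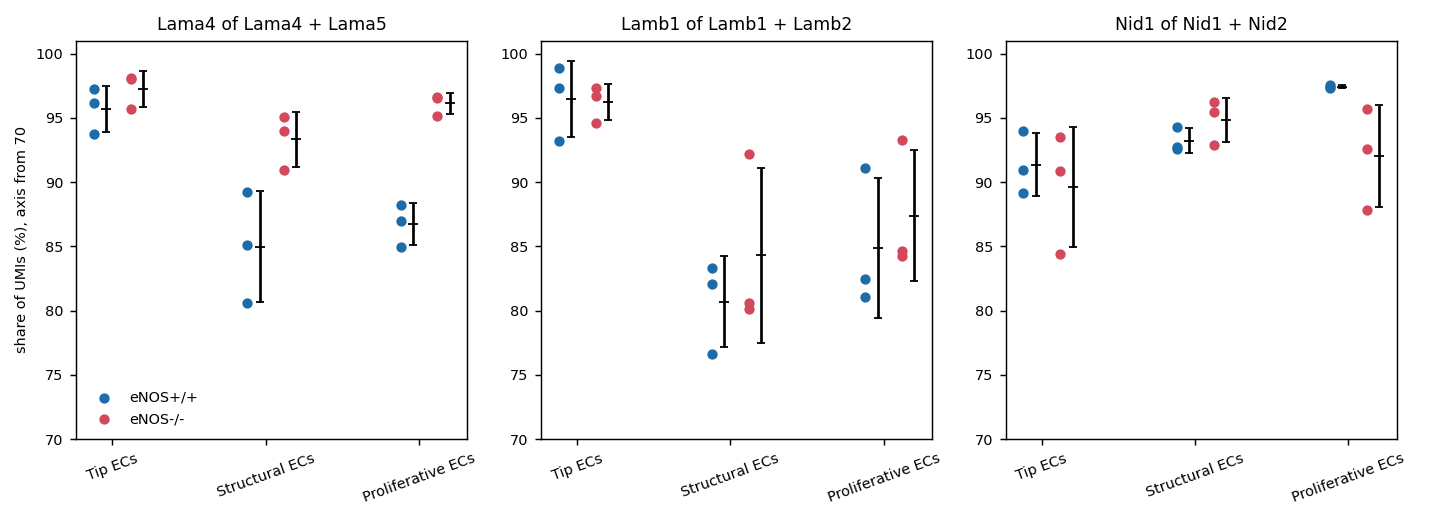
Share of Lama4, Lamb1 and Nid1 in the UMIs of each pair of alternative genes (vertical axis in percent, starting at 70) by EC subtype and genotype, with 1 point per replicate and the mean ± SD of 3 replicates beside the points. The genotypes do not overlap for Lama4 in Structural and Proliferative ECs and for Nid1 in Proliferative ECs.

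Other genes of the basement membrane were read from lists of partners. Of the 9 other basement membrane proteins with at least 200 UMIs in ECs, 6 were higher in Tip than in Structural ECs in 6 of 6 replicates: Col4a2 and Col15a1 (collagen chains), Pxdn (the enzyme that crosslinks collagen IV), Sparcl1 (a relative of Sparc), Fn1 (fibronectin) and Vwa1. Col4a2 stood at 1662 CPM in Tip and 1137 CPM in Structural ECs, and Fn1 at 2115 and 1267 CPM. Col18a1 and Npnt were lower in 6 of 6, with Col18a1 at 284 against 659 CPM. Of 10 receptors, 4 were higher in each replicate: Itgb1 (the beta subunit of the laminin-binding integrins), Mcam (a laminin alpha 4 receptor), Lrp4 (an agrin receptor) and Sdc3 (a syndecan). Mcam stood at 769 CPM in Tip and 307 CPM in Structural ECs. Of the receptors, 0 were lower in each replicate. Itga6, an integrin alpha subunit, was higher in Tip ECs in 1 of 6 replicates, with means of 219 CPM in Tip and 286 CPM in Structural ECs. Of 16 genes of secretion, crosslinking and turnover, Serpinh1 (a collagen chaperone), P4hb and Mmp14 (a membrane-bound protease) were higher and the protease inhibitors Timp1 and Timp3 were lower. Over all genes 8.57% were higher and 9.77% lower in this way. No other laminin chain reached 200 UMIs.

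Between genotypes, no partner gene passed the edgeR test in Tip, Structural or Proliferative ECs, where 35, 39 and 29 of 70 were tested. At an unadjusted p under 0.05 edgeR had 1, 1 and 2 of them and DESeq2 1, 1 and 1, where 4.95%, 5.52% and 6.38% of all genes were under that limit in edgeR and 2.98%, 3.18% and 2.84% in DESeq2, so these counts are no result about the partners. The 3 partners of smallest p were Adamts1 (a secreted protease), Itga5 (the fibronectin receptor subunit) and Plod3 (a collagen lysyl hydroxylase) in Tip ECs, with log2 fold changes of -0.57, -0.73 and -0.76. In Structural ECs they were P4ha1 (a collagen prolyl hydroxylase) at 0.76, Loxl2 (a crosslinking enzyme) at 0.96 and Adamts4 at -0.81. Loxl2 was at 209 CPM in eNOS-/- replicate 3, the library with the mural markers, and at 31.5 to 72.4 CPM in the other 5. Its mean was 833 CPM in Mural cells, its highest type, and the part of these cells in its value was not tested. With 1 replicate left out, Loxl2 ran from 0.20 to 1.34 and Adamts4 from -1.24 to -0.45. In Proliferative ECs they were Mmp14 at -0.71, Sparcl1 at 0.49 and Col15a1 at -0.57. The other partners named here kept their sign with 1 replicate left out. The median log2 fold change was -0.12, 0.01 and 0.00 over the partners tested in the 3 subtypes in this order, beside 0.00, 0.01 and 0.02 over all genes tested.

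The genes whose pattern was most like each member were found by Pearson's r of log2(CPM + 10) over 50 sums of at least 10 cells, among 7445 genes. These sums share 6 libraries and differ in depth, so r is a description. For Lama4 they were the transcription factor Ets1 (r = 0.90), Hspg2 (0.88) and Col4a2 (0.88). Hspg2 itself was most like Cavin1, a caveolar coat protein (0.91), Col4a2 (0.91) and Ets1 (0.90). The nearest to Lamb1 were Itga1, the alpha subunit of a collagen and laminin receptor (0.86), Col4a1 (0.85) and Ptbp3 (0.84). For Nid1 they were Col4a2 (0.87), Gnb4 (0.86) and Morrbid (0.84), and genes close to Lamc1 included Serpinh1 (0.83) and Flna (0.80). Sparc was most like Vim (0.93), Itgb1 (0.86) and Serpinh1 (0.85), and Agrn most like Anxa5 (0.83), Igfbp7 (0.80) and Kdelr2 (0.78). Lama5 had a different set, Wfdc1 (0.83), Gja1 (0.82) and Pkp4 (0.80), and its r with Lama4 was 0.29. The scarcer Nid2 (Acot9 0.77, Htra3 0.76 and Mpzl1 0.75) and Lamb2 (Ppic 0.73, Tmem165 0.72 and Vangl1 0.70) had lower values throughout.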

How the data were processed

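Drop-seq cells of 6 replicates were used, 3 per genotype by the sample titles. The authors aligned reads with kb-python to GRCm38, filtered cells, clustered them with Seurat 3 after bcl2fastq per the submitters' processing notes, and deposited UMI counts that are not normalized, together with a table of each cell's replicate, genotype, cell type and percent of mitochondrial UMIs. The percent values that the authors deposited were used only to check the filter. No doublet caller was run here, and the authors' treatment of doublets and the annotation counted on are not given in the sources used here, and 11 columns of the cell table were not used.

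UMIs were summed per cell type and replicate. Genotypes were compared with edgeR 4.0.16 (filterByExpr, TMM, quasi-likelihood test, Benjamini-Hochberg adjustment, limit 0.05) and DESeq2 1.42.0 in R 4.3.3. On simulated data with 200 changed genes, edgeR recovered 160 of them in Tip ECs among 5510 genes. In Structural ECs it recovered 175 among 7577 genes. The false calls numbered 10 and 13 in the same order. These numbers hold only for the size of change put into the simulated data, which is not given here. Recovery at the log2 fold changes seen for the members was not tested and cannot be read from these numbers. Chain shares were compared by exact permutation. Cell types came from the same UMIs and were not tested against each other. Of 8944 cells, 2874 (32.1%) had a barcode that differs from another of its replicate in the last base alone, and the levels were also computed with only the deepest barcode of each such family. The shares of cells with a UMI were not recomputed in this way and count each barcode as a cell. No barcode was shared within a genotype.

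The 10 members, the lists of partner genes and the cell type markers were chosen with earlier results of these data known. Named genes are the members, the 3 partners of smallest p in each EC subtype, any partner called, and the 3 genes most like each member, of which 1 gene is not reported here. Partners named in the comparison of Tip and Structural ECs, apart from these, were named after their values were seen. The alternatives were to run DESeq2, to scale by RLE, to drop the filter on low counts, to leave out 1 replicate at a time, to block on the number in the sample titles, and to sum only cells of at least 500 UMIs. The fit of Mural cells on 5 replicates was added after the data were seen. Promoter entries were found for 7 members in the RefSeq table, and 5 had 190 bases before both starts. Coordinates are those of GENCODE for GRCm38. Counting intervals are not given, and each sum's depth limits its precision.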

Additional observations from a re-analysis of the deposited data

How the results depend on the processing

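No member passed the test between genotypes under any alternative, in any EC subtype, in all ECs or in Mural cells. Leaving out an eNOS+/+ replicate of Mural cells left 1 sample in that group, which was assumed to vary like the eNOS-/- samples. The number of all genes called did move, and its cause was not tested. With no filter on low counts it was 8, 74, 10, 84 and 2 in the Tip, Structural and Proliferative subtypes, all ECs and Mural cells. In that setting 1 partner, Vtn, was called in Structural ECs and 1, again Vtn, in all ECs, where 26 of its 31 and 26 of its 37 UMIs were in eNOS-/- replicate 3. DESeq2 called 2 in Tip ECs. With cells of at least 500 UMIs the number was 2 for the Tip and 0 for the Structural subtype and 1 for all ECs. Leaving out 1 replicate gave 0 to 25 for the Tip, 0 to 28 for the Structural and 0 to 73 for the Proliferative subtype, 0 to 78 for all ECs and 0 to 2 for Mural cells, with each highest number found without eNOS-/- replicate 3 and, in the 4 sets of ECs, 0 without eNOS+/+ replicate 2.

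Samples with the same replicate number were not paired by the labels, and their deviations correlated at 0.13, -0.07 and 0.11. With the replicate number as a block edgeR called 11 genes for the Structural and 3 for the Proliferative subtype and 1 for Mural cells, and the log2 fold changes of Hspg2 in Structural ECs (0.0144) and Sparc in Mural cells (0.0481) changed sign. Other changes of sign were Lamb2 in Tip ECs under RLE scaling (-0.00462), Hspg2 (0.0150) and Sparc (0.00321) in Structural ECs and Agrn (0.107) and Sparc (0.324) in Mural cells with no filter, and Hspg2 (0.00240) and Sparc (0.0178) in Structural ECs and Agrn (0.00787) and Sparc (0.0112) in Mural cells with cells of at least 500 UMIs.

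Leaving out 1 replicate turned the sign of small log2 fold changes, none of them called, over these ranges. In Tip ECs they were Lama4 -0.0862 to 0.505, Lamb1 -0.129 to 0.276, Lamb2 -0.312 to -0.0175, Lamc1 -0.273 to 0.036, Nid1 -0.266 to 0.0815, Nid2 -0.129 to 0.721 and Agrn -0.0983 to 0.215. In Structural ECs they were Lamb2 -0.127 to 0.442, Hspg2 -0.22 to 0.174, Agrn -0.291 to 0.245 and Sparc -0.093 to 0.105. In Proliferative ECs they were Lamb2 -0.304 to 0.289, Lamc1 -0.061 to 0.306, Agrn -0.382 to 0.0802 and Sparc -0.0956 to 0.0357. In all ECs they were Lamb2 -0.094 to 0.385, Lamc1 -0.184 to 0.0612, Nid1 -0.0325 to 0.166, Nid2 -0.195 to 0.522, Agrn -0.243 to 0.245 and Sparc -0.0642 to 0.142. In Mural cells they were Nid1 -0.0476 to 0.346, Agrn -0.642 to 0.62 and Sparc -0.248 to 0.356. The difference in the Lamb1 share ran from -2.54 to 1.95 percentage points and that in the Nid1 share from -2.13 to 1.3.

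Of the member levels by cell type, 6 moved by more than 1 SD when a replicate was left out and 484 did not, and 3 moved under the other settings and 177 did not. A mean over replicates shifts little against its SD when 1 of them is left out. The 484 therefore say little about how stable the levels are. Of 100 shares of cells with a UMI, 60 moved when replaced by the share expected at 500 UMIs per cell. The sums of Mural cells, Lama5, Lamb2 and Nid2 are limited by depth, so differences of the size of their errors were not detectable there.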
